A study of Ovis aries with 16 samples.

Results

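Transcripts of 3 reproductive peptide genes, GNRH1, NPVF and TAC3, were followed in the hypothalamus of 16 fetal sheep. Every probe of the Agilent ovine array that is no control and is named for one of these genes was taken, which gave 5 of the 15008 distinct probes on the array (3 of 969 named genes), and no further probe was found through an older name in the descriptions. GNRH1 and NPVF have a pair of probes each and TAC3 has 1. All 5 passed the filter on dim probes, which asked the scanner software's call of well above background for 4 arrays or more and left 12937 probes to test.

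The fetuses carried implanted catheters and were studied at 124 to 128 days of gestation, where term is 147 days. There were 4 groups of 4 fetuses. The estradiol+BCO group received estradiol at 250 ug a day for 5 days and then a brachiocephalic artery occlusion (BCO) of 10 min. The BCO group had that occlusion with no added estradiol. The estradiol group received the same estradiol and a sham occlusion, and the control group had a sham occlusion alone. All fetuses were bled at set times around the occlusion or sham, and hypothalami were taken 1 h after its start. The brachiocephalic artery of the sheep feeds the arteries of the head, so its occlusion is a model of reduced blood flow to the fetal brain. The labels give neither the sex of the fetuses nor which of them were twins.

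GNRH1 encodes gonadotropin-releasing hormone, which is made by scattered neurons of the preoptic area and hypothalamus and drives the release of the pituitary gonadotropins. TAC3 encodes neurokinin B, a tachykinin made in arcuate neurons that also make kisspeptin and dynorphin and that act on the GnRH neurons. In sheep these arcuate neurons carry estrogen receptor alpha and are a known site of estradiol feedback. NPVF encodes the RFamide-related peptides, the mammalian counterparts of gonadotropin-inhibitory hormone, which are made in cells of the dorsomedial region of the hypothalamus and are best known for restraining GnRH neurons and gonadotropes. Each gene is therefore made by a small set of neurons within the block of tissue sampled.

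The 60-base probes are shown because every value below rests on them. The sequences are as printed in the scanner files, 5′ to 3′, and capitals mark the bases that the paired probes of a gene share. The design places the GNRH1 probes at bases 48 to 107 and 46 to 105 of the sheep GNRH1 messenger entry it cites, so that they share 58 of 60 bases.
GNRH1, first probe: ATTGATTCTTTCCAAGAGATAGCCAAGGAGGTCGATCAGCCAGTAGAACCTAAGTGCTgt
GNRH1, the other probe: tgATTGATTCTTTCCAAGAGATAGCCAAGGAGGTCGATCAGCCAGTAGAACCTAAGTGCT
The NPVF probes lie at bases 385 to 444 and 386 to 445 of the cited NPVF messenger and share 59 of 60 bases.
NPVF, first probe: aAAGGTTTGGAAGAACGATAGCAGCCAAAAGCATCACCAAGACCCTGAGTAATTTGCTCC
NPVF, the other probe: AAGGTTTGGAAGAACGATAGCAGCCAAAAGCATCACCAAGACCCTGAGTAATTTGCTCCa
The TAC3 probe lies at bases 233 to 292 of the cited TAC3 messenger, over a stretch that includes the codons of neurokinin B itself.
TAC3: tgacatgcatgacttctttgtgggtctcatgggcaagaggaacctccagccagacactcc
GC content was 45.0% for the GNRH1 and NPVF probes and 53.3% for TAC3. Apart from its own partner, no other probe of the array shared 20 bases in a row with any of them. The files call these probes unmapped and name no genome build, so no genome coordinates are given.

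Levels are given as log2 processed signal relative to the 75th percentile over that array's own probes. That percentile lay between 2047.5 and 2938.6 units of scanner intensity over the 16 arrays, and 77.27 to 86.41% of probes per array were well above background. These are relative levels for 1 probe at a time and do not rank the 3 genes against each other. The paired probes of a gene gave nearly the same answer on every array. Their difference had an SD of 0.20 for GNRH1 and 0.13 for NPVF over 16 arrays, with correlations of 0.994 and 0.997, far below the spread between fetuses. Since the paired probes share almost all their bases, this is a repeat of 1 measurement and no separate evidence. The brighter probe of each pair stands for its gene below. In a block of tissue, fewer cells of a type and less RNA per cell cannot be told apart.

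Of the 16 hypothalamic nucleus genes listed as markers of the tissue, 8 were measured (NR5A1, ISL1, ARNT2, POMC, AGRP, GHRH, OXT and PMCH), each above background on some arrays. Their summed level, in multiples of the array's 75th percentile, was 8.73 to 12.0 in the estradiol+BCO fetuses, 0.86 to 3.7 in the BCO fetuses, 4.74 to 10.0 in the estradiol fetuses and 5.98 to 8.28 in the controls. The 4 BCO arrays lay below every other array in this sum, and OXT, the oxytocin gene, decided that for the estradiol+BCO arrays. OXT alone made up 5.02 to 11.1 of the sum in estradiol+BCO, 0.0958 to 2.65 in BCO, 1.44 to 3.22 in estradiol and 0.456 to 5.88 in control fetuses. Without it the other 7 markers summed to 0.928 to 4.41 in estradiol+BCO, 0.765 to 1.4 in BCO, 1.52 to 7.64 in estradiol and 2.4 to 5.52 in control fetuses. BCO arrays then still lay below all control and estradiol arrays, and overlapped the estradiol+BCO arrays. Of these 8 markers 7 were lower in BCO than in control fetuses (median log2 difference -1.86), and 6 were lower in estradiol+BCO than in estradiol fetuses (median -0.29). The 16 arrays came from 2 slides, with 2 arrays of each group on each slide, and 860 probes differed between the slides at an adjusted p under 0.05, none of them a probe of GNRH1, NPVF or TAC3. Differences within each slide are therefore given beside the pooled values.

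TAC3, the neurokinin B gene, was lower on every occluded array than on any sham array of the same estradiol state. None of its differences passed adjustment over all probes. Its levels were -2.67, -2.82, -3.53 and -2.44 in the 4 estradiol+BCO fetuses. They were -3.08, -3.31, -2.69 and -3.61 in the 4 BCO fetuses. In the sham-occluded fetuses they were -2.41, -0.20, -2.15 and -2.33 with estradiol and -1.69, -2.01, -2.25 and -2.51 without. All BCO arrays were below all control arrays, and all estradiol+BCO arrays were below all estradiol arrays. The closest arrays of the latter 2 groups were nearly level, at -2.44 and -2.41. Among all 8 occluded fetuses, 7 lay below the lowest sham-occluded fetus, and the exception was the highest estradiol+BCO array at -2.44, against -2.51 for the lowest control.

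TAC3 averaged -3.17 ± 0.39 in BCO fetuses and -2.11 ± 0.35 in control fetuses (SD, n = 4 each). The difference was -1.06 ± 0.42 on the log2 scale (SE), or 0.48 times the control level, with an adjusted p of 0.600 by limma (Benjamini-Hochberg over all 12937 tested probes). In estradiol-treated fetuses the level was -2.87 ± 0.47 with the occlusion and -1.77 ± 1.05 without it (SD, n = 4 each). That difference was -1.09 ± 0.42, or 0.468 times the sham level, with a limma adjusted p of 0.572. It was -0.57 without estradiol replicate 2, whose TAC3 level stood far above the other estradiol fetuses. Within slides the 2 differences were -1.35 and -0.77 for BCO against control, and -1.44 and -0.75 for estradiol+BCO against estradiol.

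Groups that do not overlap were not rare on this array. In BCO against control 1.73% of the tested probes had all 4 BCO arrays below all 4 controls, and in estradiol+BCO against estradiol the share was 2.79%. Both conditions at once held for 4 of 12937 probes, or 0.0309%. These were TAC3, PCSK1 and 2 probes with no gene name, singled out here after their values were seen. Were the 2 comparisons unrelated, the 2 single shares multiplied would give more than 0.0309%, so the 4 probes are no excess. PCSK1 encodes prohormone convertase 1, which cuts peptide hormone precursors in neurons and endocrine cells. Its difference was -0.56 ± 0.24 for BCO against control and -0.81 ± 0.24 for estradiol+BCO against estradiol, with limma adjusted p-values of 0.662 and 0.431.

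The differences in TAC3 with estradiol were smaller than their standard errors. Estradiol fetuses were 0.34 ± 0.42 above controls (limma adjusted p = 1), and the value was -0.18 without estradiol replicate 2. Estradiol+BCO fetuses were 0.30 ± 0.42 above BCO fetuses (adjusted p = 0.859). The occlusion difference with estradiol minus that without was -0.03 ± 0.59 (limma adjusted p = 0.997). In order of mean TAC3 level the groups ran estradiol, control, estradiol+BCO and BCO, and among neighbours in that order only control and estradiol+BCO lay farther apart than the SD within groups. Averaged over both estradiol states, a comparison added after the values were seen, the occlusion difference in TAC3 was -1.08 ± 0.29 (limma adjusted p = 0.467).

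**Figure D1:**
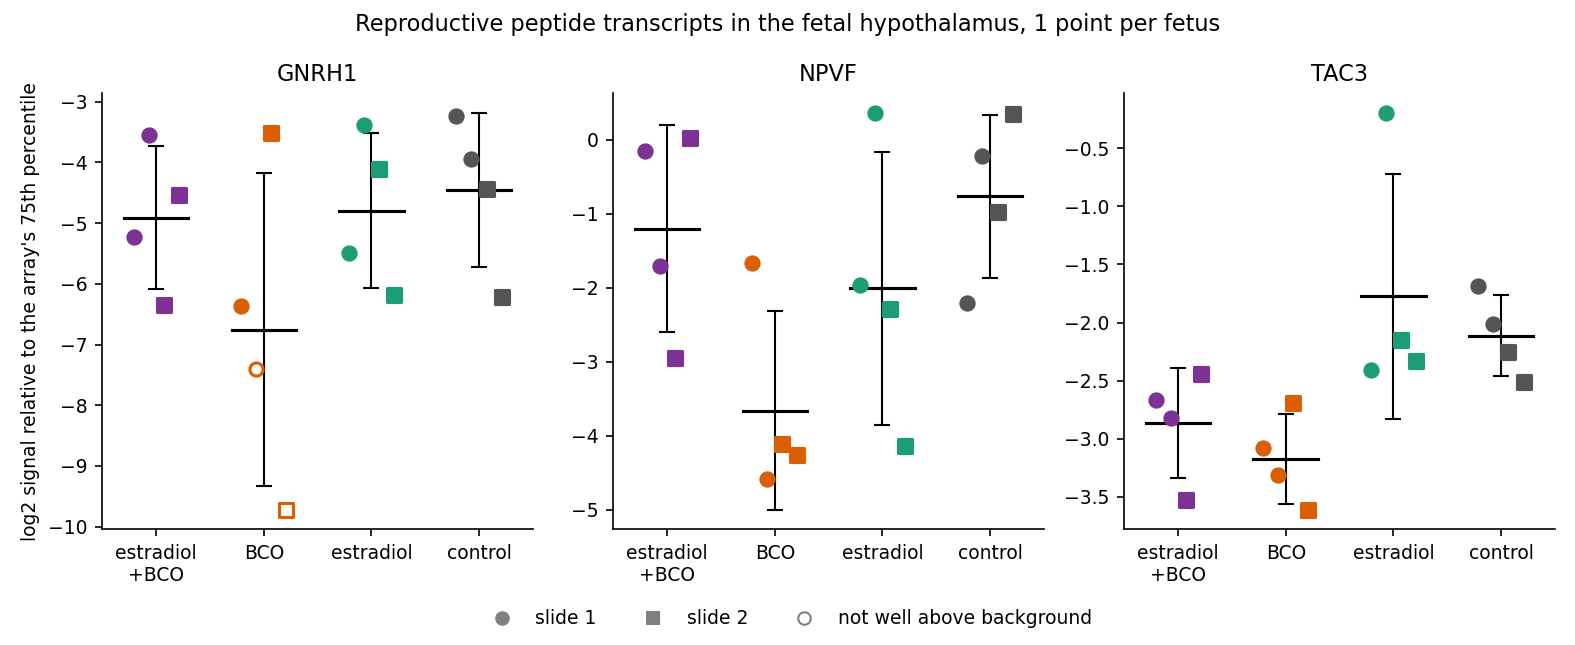
Log2 signal relative to the array's 75th percentile (vertical axis) for GNRH1, NPVF and TAC3, with 1 point per fetus, horizontal lines at group means and bars for the SD (n = 4). Symbols give the slide, and open symbols are arrays on which the probe was not well above background. For TAC3 the occluded groups sit below their sham groups, for NPVF 3 BCO fetuses lie near -4.3, and for GNRH1 the 4 BCO fetuses spread from -9.72 to -3.52.

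NPVF, the RFamide-related peptide gene, was lowest in the occluded fetuses without estradiol. Its levels were -0.15, -1.71, -2.95 and 0.02 in the estradiol+BCO fetuses. In the BCO fetuses they were -1.67, -4.59, -4.11 and -4.26. The sham groups had -1.96, 0.36, -2.28 and -4.14 with estradiol and -2.21, -0.22, -0.97 and 0.35 without. Of the BCO arrays 3 lay below every control array, and BCO replicate 1 at -1.67 lay above the lowest control at -2.21, so that the groups overlapped. The estradiol fetuses covered nearly the whole range of the 16 arrays, and 1 of them, at -4.14, was as low as the BCO fetuses.

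NPVF averaged -3.66 ± 1.34 in BCO fetuses and -0.77 ± 1.1 in control fetuses (SD, n = 4 each). The difference was -2.89 ± 0.94 (SE), or 0.135 times the control level, and its limma adjusted p was 0.497. It ran the same way within each slide, at -1.91 and -3.87. In estradiol-treated fetuses NPVF averaged -1.20 ± 1.40 with the occlusion and -2.01 ± 1.85 with sham. That difference was 0.81 ± 0.94 (limma adjusted p = 0.892), and its sign differed between slides, at -0.13 and 1.75. It was 0.09 without estradiol replicate 4 and 1.60 without estradiol replicate 2.

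Among occluded fetuses NPVF was higher with estradiol than without, by 2.46 ± 0.94 or 5.50 times, and the limma adjusted p was 0.423. Within slides that difference was 2.20 and 2.72. Among sham fetuses the estradiol group was 1.24 log2 units below the controls (-1.24 ± 0.94, limma adjusted p = 1), with 0.42 on slide 1 and -2.90 on slide 2. It was -0.53 without estradiol replicate 4 and -2.03 without estradiol replicate 2. The interaction, which asks whether the occlusion difference depends on estradiol, was 3.70 ± 1.34 for NPVF (limma adjusted p = 0.562), with 1.78 and 5.62 within slides. By mean NPVF level the order was control, estradiol+BCO, estradiol and BCO, in which only the neighbours estradiol and BCO lay farther apart than the SD within groups. The comparisons with BCO share the 4 BCO arrays, on which the hypothalamic marker sum was also at its lowest (with OXT included), and the part of that in the NPVF and GNRH1 differences was not tested.

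GNRH1 was at its lowest in the BCO fetuses, and also most uneven there. Its levels were -5.22, -3.54, -6.34 and -4.53 in the estradiol+BCO fetuses and -6.36, -7.41, -3.52 and -9.72 in the BCO fetuses. The sham-occluded fetuses had -5.49, -3.39, -4.11 and -6.18 with estradiol and -3.24, -3.94, -4.44 and -6.21 without. On 14 of 16 arrays the probe was well above background, and the other 2 were BCO replicates 2 and 4. In scanner units those 2 arrays read 13.7 and 2.8, against detection floors (the dimmest probe called above background) of 17.6 and 14.1 on the same arrays, so only an upper limit is measured there. BCO replicate 3, at 204.0 units, was as bright as the brightest fetuses of the other groups and lay within the control range, while the other 3 BCO arrays lay below every control.

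GNRH1 averaged -6.75 ± 2.57 in BCO fetuses and -4.46 ± 1.27 in control fetuses (SD, n = 4 each). The difference was -2.29 ± 1.09 (SE) with a limma adjusted p of 0.701. It was -1.62 with the 2 dim arrays set to that floor, and -0.79 after normexp background correction, which raises dim signals. It was -1.31 without BCO replicate 4 and -3.37 without BCO replicate 3, and -3.30 and -1.29 within slides. The size of this difference therefore depended on 2 arrays at the detection limit, while its direction was the same under each of these settings.

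In estradiol-treated fetuses GNRH1 averaged -4.91 ± 1.18 with the occlusion and -4.79 ± 1.27 with sham, a difference of -0.12 ± 1.09 (limma adjusted p = 0.993). Estradiol fetuses differed from controls by -0.34 ± 1.09 (limma adjusted p = 1). Estradiol+BCO fetuses were 1.84 ± 1.09 above BCO fetuses (limma adjusted p = 0.615), a value of 0.49 after normexp background correction and 1.17 with the 2 dim arrays at the floor. It was 0.85 without BCO replicate 4 and 2.92 without BCO replicate 3. The interaction was 2.18 ± 1.54 (limma adjusted p = 0.857), and 0.52 after normexp, 1.19 without BCO replicate 4 and 3.26 without BCO replicate 3. The order of mean GNRH1 levels was control, estradiol, estradiol+BCO and BCO, and of the neighbours only estradiol+BCO and BCO lay farther apart than the SD within groups, which they did not with the dim arrays at the floor.

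**Figure D2:**
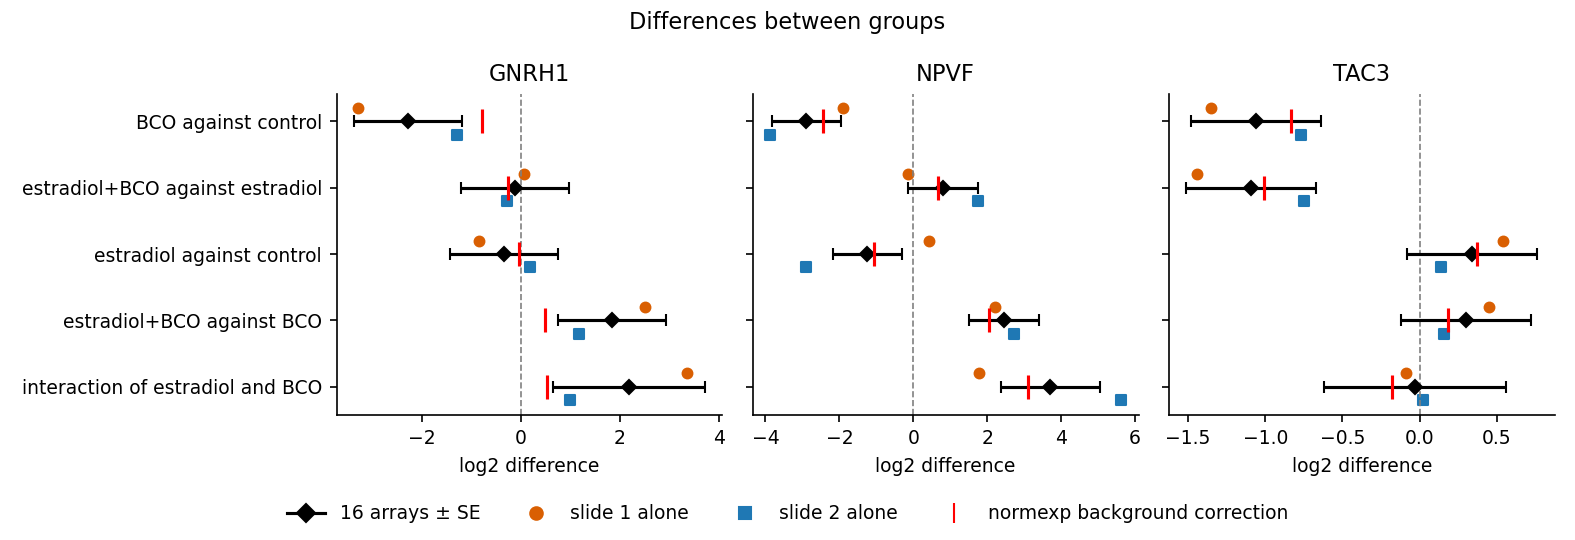
Log2 differences (horizontal axis) for 5 comparisons of each gene, each given as the first named group minus the second, with diamonds and SE bars from all 16 arrays, points for each slide alone and red ticks after normexp background correction. TAC3 differences for the occlusion sit near -1.1 with and without estradiol, whereas those of NPVF are 0.81 with and -2.89 without it, and the GNRH1 values move toward 0 after normexp.

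No probe of the 3 genes passed an adjusted p of 0.05 in any comparison. The share of all tested probes that passed was 0.0% for BCO against control, 0.00773% (1 probe) for estradiol+BCO against estradiol, 0.0% for estradiol against control, 0.0% for estradiol+BCO against BCO and 0.00773% for the interaction. At an unadjusted p under 0.05 in the same limma fit, NPVF and TAC3 were among the 927 probes (7.17%) in BCO against control, with p-values of 0.00836 and 0.0229. TAC3 was among the 1003 (7.75%) in estradiol+BCO against estradiol (unadjusted p = 0.0195 by limma). NPVF was among the 1232 (9.52%) in estradiol+BCO against BCO (unadjusted limma p of 0.0207) and among the 931 (7.2%) for the interaction, with an unadjusted limma p of 0.0149. None of the 3 genes was among the 425 (3.29%) in estradiol against control. GNRH1 was in these sets only through its other probe, in BCO against control (unadjusted limma p of 0.042, against 0.0538 for the first probe). With 4 fetuses a group, the precision for these genes was set by the spread between fetuses.

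That spread was wide. The SD between fetuses within groups was 1.68 for GNRH1, larger than that of 99.4% of tested probes (1.39 and 98.8% with the 2 dim arrays at the floor), and 1.45 for NPVF, larger than 99.0%. For TAC3 it was 0.63, larger than 89.0%, and the median over all tested probes was 0.25. Among probes of a like mean level (within 0.5 log2 units) the figures were 98.6%, 99.4% and 93.6%, so the SDs were also large for that level. Within the control group alone the brightest GNRH1 array was 7.87 times the dimmest, NPVF ranged over 5.87-fold and TAC3 over 1.76-fold. Within the BCO group GNRH1 ranged over at least 14.7-fold, taken against the detection floor since the lowest array was not well above background, NPVF over 7.57-fold and TAC3 over 1.89-fold.

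**Figure D3:**
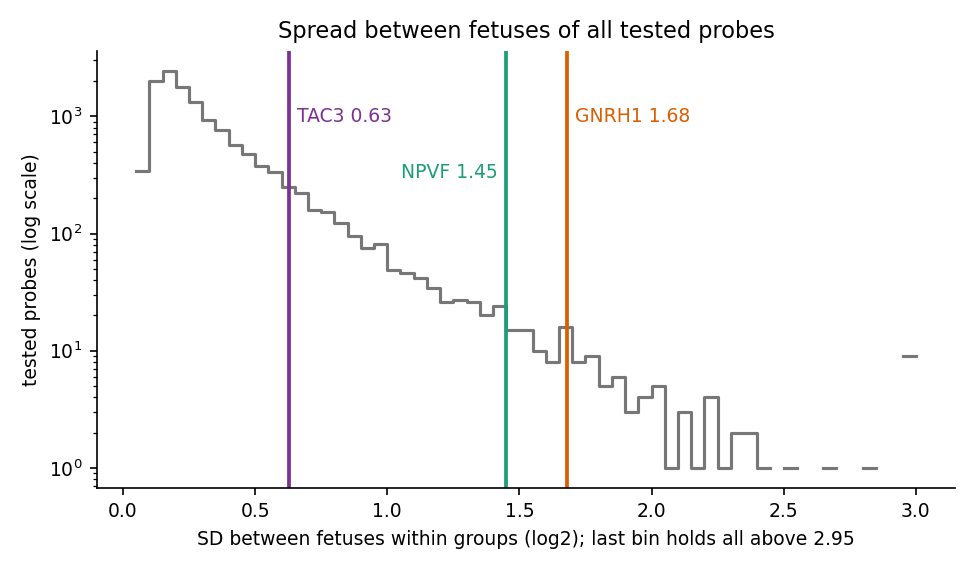
Number of tested probes (vertical log axis) by their SD between fetuses within groups (horizontal axis, log2 units), with the 3 genes as vertical lines and gaps where a bin holds no probe. GNRH1 (1.68) and NPVF (1.45) lie in the far right tail and TAC3 (0.63) on its shoulder.

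GNRH1 and TAC3 varied together over the 16 arrays. Pearson's r was 0.68 and Spearman's rho 0.72, and r was 0.57 without the 2 arrays farthest from the GNRH1 median. Those 2 arrays are BCO replicates 2 and 4, on which GNRH1 was below its detection floor. On deviations from group means r was 0.67, and within the slides it was 0.71 and 0.72. In the control group the 4 fetuses ranked in the same order for both genes. In the BCO group replicates 3 and 1 ranked first and second for both, and the order of the 2 arrays below the GNRH1 floor is not measured. NPVF and TAC3 gave r = 0.54 and rho = 0.46, with 0.38 without the 2 farthest arrays and 0.57 on deviations. Within groups their r was -0.83 in control, 0.85 in estradiol, 0.23 in BCO and 0.94 in estradiol+BCO fetuses. GNRH1 and NPVF gave r = 0.46 and rho = 0.36, with 0.22 on deviations. Their r was 0.10 without the 2 farthest arrays, so that relation rested on them. By group it was -0.82 in control, 0.86 in estradiol, 0.17 in BCO (with 2 arrays below the GNRH1 floor) and 0.39 in estradiol+BCO fetuses. The 3 relations are descriptions over arrays that share groups, slides and scaling. Estradiol replicate 2 was the highest of all 16 arrays for TAC3 and the second highest for GNRH1. For NPVF it was level with control replicate 4, at 0.36 and 0.35. On the other NPVF probe control replicate 4 was the higher, at 0.39 against 0.31. BCO replicate 4 was the lowest for TAC3, the second lowest for NPVF and 1 of the 2 arrays on which GNRH1 was not well above background.

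The named genes most like each peptide gene were sought among 856 named genes by Pearson's r over the 16 arrays. TAC3 was most like PCSK1 at the setting used here (r = 0.85, rho = 0.95, and 0.71 on deviations from group means). Under quantile normalization SLIT2 came first at 0.90, with PCSK1 at 0.86, and with slide means removed FGF10, SLIT2 and PCSK1 each had 0.84. It was followed by SLIT2, an axon guidance ligand, at 0.82, BRS3, a bombesin receptor family member, at 0.77, C3, a complement component, at 0.75, and FGF10, a fibroblast growth factor, at 0.73. GNRH1 was most like ESR1, which encodes estrogen receptor alpha (r = 0.81, rho = 0.73, and 0.76 on deviations). Then came PLIN2, a lipid droplet protein gene, at 0.71, BRS3 at 0.71 and NRG1, a neuregulin, at 0.69. These values were smaller without the 2 arrays farthest from the GNRH1 median, both below its detection floor. They were then 0.66 for ESR1, 0.44 for PLIN2, 0.54 for BRS3 and 0.47 for NRG1. NPVF was most like GAL, the galanin gene (r = 0.86, rho = 0.79, and 0.76 on deviations), then SST, the somatostatin gene, at 0.79, CAPN3, a calpain, at 0.77, TLR7, a toll-like receptor, at 0.76, and BRS3 at 0.74. BRS3 stood in all 3 lists, but with slide means removed it dropped out of those of TAC3 and NPVF, while the other 4 genes of each stayed. Under quantile normalization all 5 genes stayed in the lists of TAC3 and of NPVF. For GNRH1, ESR1, PLIN2 and BRS3 stayed under both settings and NRG1 under neither. ESR1 for GNRH1 and GAL for NPVF came first under both settings.

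**Figure D4:**
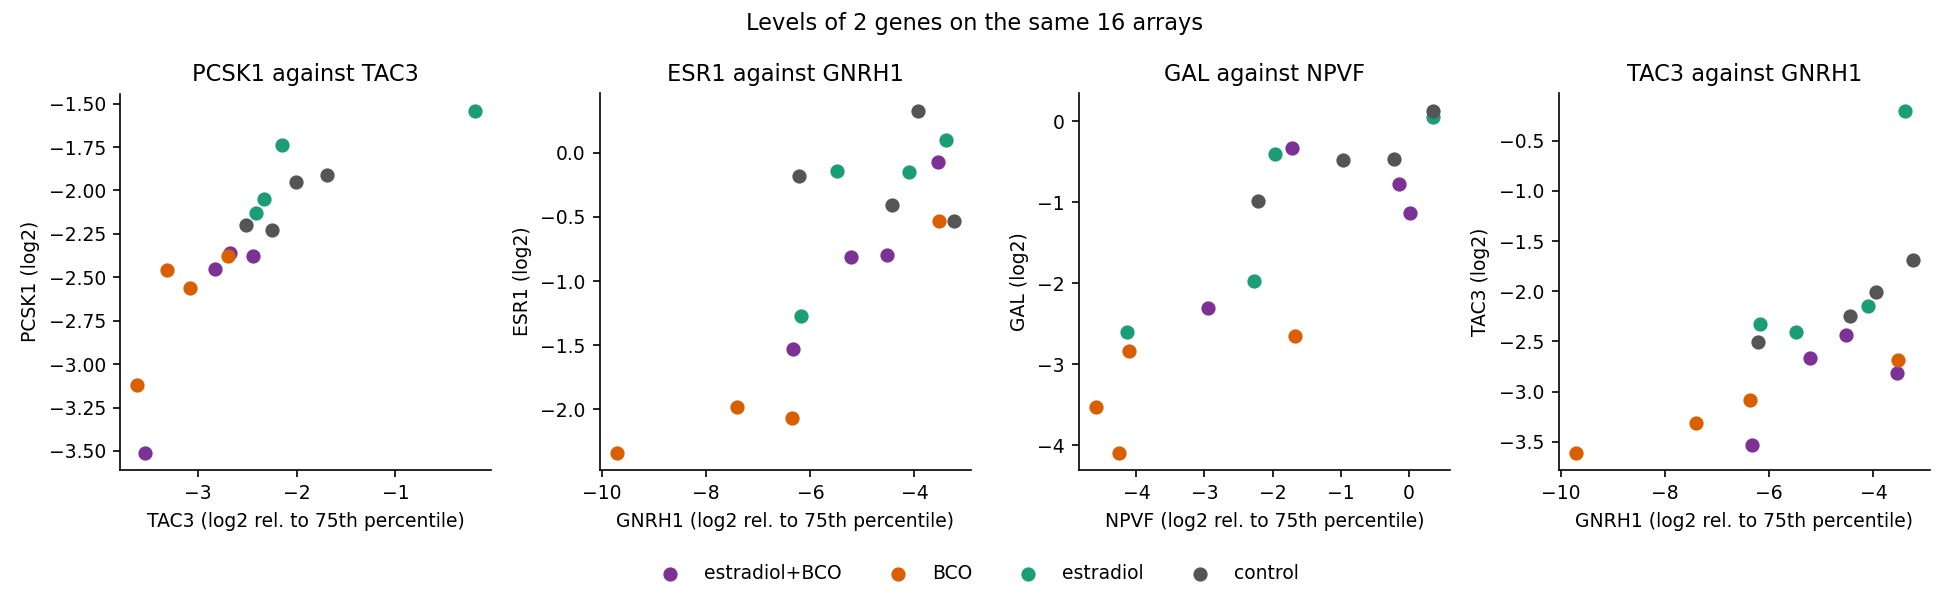
Levels of 2 genes on the same arrays (both axes in log2 relative to the 75th percentile), coloured by group, for PCSK1 against TAC3, ESR1 against GNRH1, GAL against NPVF and TAC3 against GNRH1. The points run from low to high on both axes in each panel (r = 0.85, 0.81, 0.86 and 0.68, n = 16), and BCO replicate 4 lies at or near the low end of each, with GNRH1 not well above background there.

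The receptors of the peptides could be followed only in part. GNRHR, the GnRH receptor gene, which acts chiefly in the pituitary, has 2 probes, and these were well above background on 0 and 2 of the 16 arrays, so GNRHR was not tested. KISS1, KISS1R, the neurokinin B receptor gene TACR3 and the RFamide-related peptide receptor gene NPFFR1 were on the list of reproductive genes described next. None of them was among the measured genes of that list.

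A list of 61 other genes of the reproductive axis (peptides and hormones, their receptors, steroid receptors, gonadotropin subunits, activin and inhibin genes, prohormone enzymes) had 24 on the array and 23 measured. In BCO against control 15 of the 23 were lower and 8 higher, with a median log2 difference of -0.33, where the median of all tested probes was 0.01. In estradiol+BCO against estradiol 17 were lower and 6 higher, with a median of -0.17 against -0.01 for all probes. In estradiol against control 12 were lower and 11 higher (median -0.01), and in estradiol+BCO against BCO 13 were lower and 10 higher (median -0.04). None of the 23 passed adjustment in either direction in any of these comparisons or the interaction, by limma. At an unadjusted p under 0.05 there were 7 of the 23 for the occlusion without estradiol (7.17% over all probes) and 5 with it (7.75%). There were 0 for estradiol among sham fetuses (3.29%), 2 for estradiol among occluded fetuses (9.52%) and 1 for the interaction (7.2%), the last 2 under the share over all probes.

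The members of that list with the lowest p in BCO against control were GAL, ESR1, POMC and PCSK1. In each all 4 BCO fetuses were below all 4 controls, which held for 1.73% of all tested probes. For ESR1 this was all but a tie, with the highest BCO and the lowest control array both at -0.53. The 4 genes were picked by p in this same comparison, so their lack of overlap is no separate evidence. GAL, whose product galanin acts on GnRH neurons, was -2.65, -3.52, -2.83 and -4.09 in BCO fetuses and -0.99, -0.47, -0.48 and 0.13 in controls. Its difference was -2.82 ± 0.56 (limma adjusted p = 0.466). ESR1 differed by -1.53 ± 0.41 (adjusted p = 0.466 by limma). POMC, the precursor of melanocortins and beta-endorphin in arcuate neurons, differed by -1.54 ± 0.51 (limma adjusted p = 0.511) and is also among the 8 hypothalamic markers.

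In estradiol+BCO against estradiol the lowest p-values belonged to PCSK1, then FGFR1, a receptor needed for GnRH neuron development (-0.50 ± 0.21), IGF1R (-0.41 ± 0.18) and CPE, a carboxypeptidase that trims peptide precursors (-0.26 ± 0.12). In estradiol+BCO against BCO they belonged to GAL (2.14 ± 0.56, limma adjusted p = 0.257), ESR1 (0.93 ± 0.41), the dynorphin receptor gene OPRK1 (0.29 ± 0.15) and CPE (-0.21 ± 0.12). The interaction was 2.92 ± 0.79 for GAL (limma adjusted p = 0.337), the same sign as that of NPVF. In estradiol against control the lowest p belonged to the prolactin gene PRL (-2.18 ± 1.04), followed by FST, the follistatin gene (-0.39 ± 0.28), GAL (-0.78 ± 0.56) and IGF1R (0.20 ± 0.18). PRL was 1.12 in control replicate 4 and between -3.82 and -3.47 in the other controls.

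Markers of tissue next to the hypothalamus also differed between fetuses. Of 10 pituitary markers 5 were measured (LHB, FSHB, CGA, PRL and GHRHR). Their summed level was 3.89 to 6.58 in estradiol+BCO fetuses, 3.72 to 5.96 in BCO fetuses, 4.53 to 14.6 in estradiol fetuses and 3.88 to 7.56 in controls. LHB made up most of this sum on most arrays, at 1.86 to 2.71 on the log2 scale. CGA ran from -9.40 to 3.44 and PRL from -6.47 to 1.12, so similar sums do not mean similar levels of those genes. All 5 pituitary markers were lower in BCO than in control fetuses, with a median difference of -0.66. That median was the value of FSHB, which was well above background on 2 of 4 arrays in each of these groups. LHB differed by only -0.11. In estradiol+BCO against estradiol 2 of the 5 were lower, with a median of 0.01. NEUROD1, the only measured marker of 7 for thalamus and telencephalon, had a level of 0.135 to 0.179 in estradiol+BCO, 0.0394 to 0.161 in BCO, 0.145 to 0.222 in estradiol and 0.161 to 0.206 in control fetuses. The summed level of 6 astrocyte markers was 48.8 to 69.7 in estradiol+BCO, 40.8 to 54.9 in BCO, 59.7 to 71.6 in estradiol and 45.2 to 64.1 in control fetuses. Most of that sum was AQP4, at 4.79 to 5.92 on the log2 scale. No neuron or oligodendrocyte marker of the lists was measured. The part of these markers in the GNRH1, NPVF and TAC3 differences was not tested. Estradiol replicate 2, the array with the highest TAC3 level, also had the highest pituitary sum of the 16, at 14.6. CGA, the gonadotropin alpha subunit gene, was at 3.44 on the log2 scale there.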

How the data were processed

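Total RNA from 16 hypothalami, 500 ng per array (RNA integrity between 7.4 and 8.4, per the labels), was labelled with Cy3 and hybridised by the authors, 1 fetus to an array. The deposited scanner files hold processed signal as intensity after background subtraction, from Feature Extraction 10.1.1.1 per the file headers. The deposited value table holds log2 values, found here to be log2 processed signal minus the array median. Outlier spots (2 to 36 per array) were set to missing, spots of 1 probe averaged, and the array's 75th percentile subtracted. With limma 3.58.1 in R 4.3.3 the 4 groups were fitted to all 16 arrays, with 2-sided tests and Benjamini-Hochberg adjustment over 12937 probes, leaving out 2071 that were dim. The test was tried on simulated data. Nothing states that fetuses came from separate ewes. Gene names came from the files and a table of sheep genes for names alone.

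The 3 genes, the lists and the markers were chosen with earlier results of these data known. Named genes were the 5 most alike to each gene and up to 4 list members with the lowest p per comparison, and 2 genes that belong to these lists are not reported here. Alternatives covered normalization, background correction, the filter, slide and replicate blocks, and left-out arrays. The number of arrays limits precision.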

Additional observations from a re-analysis of the deposited data

Results flagged for a closer look

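Sets of 4 fetuses were examined for the probes of GNRH1, NPVF and TAC3 and for the other named genes. In 10 of 100 sets 1 fetus stood apart from the other 3 by Dixon's ratio test, where chance gives about 1 in 20 for a single set. The sets share fetuses, and some are of paired probes or of genes picked from these data. The count is therefore no measure of an excess over chance. NPVF was -1.67 in BCO replicate 1, against -4.59 to -4.11 in the other BCO fetuses, and this is the array that made the BCO and control groups overlap. TAC3 was -0.20 in estradiol replicate 2, against -2.41 to -2.15 in the other estradiol fetuses. The same fetus had the highest pituitary marker sum (14.6) and was level with control replicate 4 at the top for NPVF. For PCSK1, estradiol+BCO replicate 3 was at -3.51 with the others at -2.45 to -2.36, and that fetus was also the lowest of its group for TAC3, NPVF and GNRH1. SST was 1.77 in BCO replicate 4 (others 2.96 to 3.08) and 2.86 in estradiol+BCO replicate 3 (others 4.15 to 4.40). PRL was 1.12 in control replicate 4 (others -3.82 to -3.47). CGA was -0.01 in BCO replicate 1 (others -7.46 to -6.52). OPRK1 was -3.39 in BCO replicate 1 (others -2.80 to -2.70). NRG1 was -1.46 in control replicate 3 (others -1.12 to -1.07). FGF10 was -4.10 in estradiol+BCO replicate 4 (others -4.57 to -4.54).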

How the results depend on the processing

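Over 528 alternative values of the 18 differences (3 genes, 6 comparisons), none passed an adjusted p of 0.05, the lowest was 0.261, and 18 values turned their sign, all in 6 differences. GNRH1 in estradiol+BCO against estradiol (-0.12) was 0.06 on slide 1 alone, 0.03 with the other probe of the gene and -0.58 to 0.36 with each array left out in turn. GNRH1 in estradiol against control (-0.34) was 0.18 on slide 2 alone and -0.92 to 0.13 with arrays left out. NPVF on slide 1 alone was -0.13 in estradiol+BCO against estradiol (0.81) and 0.42 in estradiol against control (-1.24). TAC3 in estradiol against control (0.34) was -0.18 to 0.55 with arrays left out. The TAC3 interaction (-0.03) was 0.02 under quantile normalization, 0.02 on slide 2 alone and -0.25 to 0.49 with arrays left out. The cause was not tested. With the replicate number as a block the differences kept their values, for example TAC3 in BCO against control at -1.06 (limma adjusted p = 0.541), the count of probes past the threshold was 0 in place of 1 in estradiol+BCO against estradiol and 3 in place of 1 for the interaction, and 6 of 16 arrays correlated best with their own number. Same-numbered arrays deviated together by over r = 0.1 in 20 of 24 pairs (lowest -0.0249, median 0.123), short of every pair. They always shared a slide, and slide differences were not removed from these deviations. The labels do not say what else the numbers share, so the block was kept as an alternative. Over all alternatives such counts ran from 0 to 14, the highest on slide 2 alone for BCO against control and estradiol+BCO against BCO. Requiring a signal well above background on all 16 arrays left no GNRH1 value. The average over estradiol states, the other probe, the raised dim arrays and the marker sum without OXT were added after seeing the data. The 2 BCO arrays on which GNRH1 was not well above background give only a limit.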
